A study of Mus musculus with 16 samples.

Results

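The genes of bile acid and sterol handling described here are 10 of the 52525 genes listed in all 3 count tables, chosen by gene symbol as Nr1h4, Nr0b2, Fgf15, Slc10a2, Slc51a, Slc51b, Fabp6, Cyp27a1, Abcg5 and Abcg8. In KO-CAG organoids 8 of the 9 that entered the test were higher than in WT organoids, led by Fgf15 and Cyp27a1, and none was lower, where 18.1% of all tested genes were higher. Fgf15 and Nr0b2 entered that test only through their KO libraries, so that a difference in that direction was favoured for them. In KO-IEC crypts 1 of 7 passed the test, Cyp27a1, where 4.3% of all tested genes were higher, and in KO-IEC organoids 0 of 7 did, where 0.00717% of all tested genes passed.

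The RNA-seq libraries come from mouse small intestine on a C57BL/6 background and compare deletion of Cul4b, an X-linked scaffold of a ubiquitin ligase, with wildtype in 3 experiments. The first has 4 WT (Cul4b fn/Y) and 4 KO-IEC (pVillin-Cre; Cul4b fn/Y) libraries of crypts, freed from the gut wall with EDTA after the villi were scraped off, and the second has 2 WT and 2 KO-IEC organoid libraries. The third has 2 WT and 2 KO-CAG (CAG-CreERT2; Cul4b fn/Y) organoid libraries. The villin promoter drives Cre in the intestinal epithelium, whereas the CAG promoter drives a tamoxifen-inducible Cre in all cell types and Cre in organoids was switched on with 4-OHT, the active form of tamoxifen. Mice were adult, 8 to 16 weeks old in most experiments. The study describes its replicates as biological, with as many KO-IEC mice as crypt libraries. The segment of small intestine, the Cre and 4-OHT status of the WT organoids and whether organoid libraries come from separate animals are not given in the sources used here, so organoid p-values measure the spread between these libraries, which may be technical. Cul4b itself was lower in every deleted library, at 0.848 to 2.21 CPM in KO-IEC crypts against 31.7 to 38.3 in WT, at 1.69 and 1.76 against 83.2 and 73.2 in KO-IEC organoids, and at 3.34 and 5.19 against 72.9 and 70.1 in KO-CAG organoids. CPM are counts per 1000000 of the TMM-scaled library total. The log2 fold changes were -4.56, -5.50 and -4.02 (SE 0.25, 0.22 and 0.16, adjusted p = 0.000169, 0.0311 and 1.93e-06, edgeR quasi-likelihood test).

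Bile acids are made from cholesterol in the liver and are taken back in the last part of the small intestine, the ileum. There the apical transporter encoded by Slc10a2 brings them into the enterocyte, the carrier encoded by Fabp6 binds them in the cytosol, and the Slc51a and Slc51b subunits export them to the blood. Inside the cell they activate the nuclear receptor FXR, encoded by Nr1h4, whose known targets include Nr0b2, Fabp6, Slc51a, Slc51b and Fgf15, a hormone that signals to the liver to lower bile acid synthesis.

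FXR, paired with its partner RXR, is known to bind an inverted repeat of AGGTCA around 1 spacer base, here searched as AGGTCANTGACCT on both strands (it reads the same on each) in RefSeq promoters of build GRCm38.p6, which span 250 bases before to 50 bases after a start site. Of the 10 genes, 9 had a promoter entry, Fgf15 being the other. The promoters that held the closest matches are shown because their genes are ileal FXR targets. In Fabp6 the first of the closest matches starts at position -222 from the start site and has 2 mismatches (chr11:43601757-43601799, minus strand). Another stretch nearer the start site, aggtgaataacct, also has 2 mismatches and lies outside the sequence shown. The matches in Slc51a, at position -79 (chr16:32487931-32487973, minus strand), and Slc51b, at position -187 (chr9:65422933-65422975, minus strand), have 3 mismatches. Capitals mark the first of the closest 13-base matches in each.
Fabp6: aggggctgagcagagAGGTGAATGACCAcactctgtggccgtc
Slc51a: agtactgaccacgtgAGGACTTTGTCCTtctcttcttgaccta
Slc51b: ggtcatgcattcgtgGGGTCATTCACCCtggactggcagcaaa
A match with at most 2 mismatches was present in 1.14% of the 32851 promoters and one with at most 3 in 11.4%, so the Slc51a and Slc51b matches are of a common kind. The remaining promoters of these genes had 4 or 5 mismatches at best. A match is a likeness of letters and does not show binding.

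Abcg5 and Abcg8 lie head to head on chromosome 17. The 109 bases between the Abcg5 start site and the downstream of the 2 Abcg8 start sites in RefSeq (chr17:84683012-84683120, plus strand) are shown because the pair shares them as upstream sequence.
Abcg5-Abcg8: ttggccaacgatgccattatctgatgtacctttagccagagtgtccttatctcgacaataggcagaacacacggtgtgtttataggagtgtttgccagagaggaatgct
This stretch is 45.9% G and C, and neither gene's promoter held a match with 3 or fewer mismatches.

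On the level of transcripts per length (CPM divided by gene length in kb), Abcg5 and Slc51a led in WT crypts with 54.8 ± 18.3 and 53.5 ± 22.4 CPM per kb (SD, n = 4). Slc51b (31.9 ± 21.3), Abcg8 (range 13.6 to 36.2), Fabp6 (20.6 ± 17.2) and Nr1h4 (20.0 ± 3.46) followed, and each of these neighbours overlapped the next in range. Cyp27a1, at 6.05 ± 1.41 CPM per kb, lay below all of them except for the lowest Fabp6 library. Nr0b2, Fgf15 and Slc10a2 were near the detection floor, with means of 0.468, 0.267 and 0.120 CPM per kb.

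In organoids Abcg5 also came first in both WT groups (43.2 ± 0.509 and 36.3 ± 0.445 CPM per kb, SD, n = 2 each), above Abcg8 and then Nr1h4 without overlap. Fabp6 was close to absent, with 0 to 4 counts in each of the 8 organoid libraries. A count of 3 corresponds to 0.178 to 0.408 CPM over the 16 libraries, whose totals run from 7348191 to 16881395 counts, and this floor covers counting error only. The experiments were counted in separate tables, so levels were not compared between them.

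**Figure D1:**
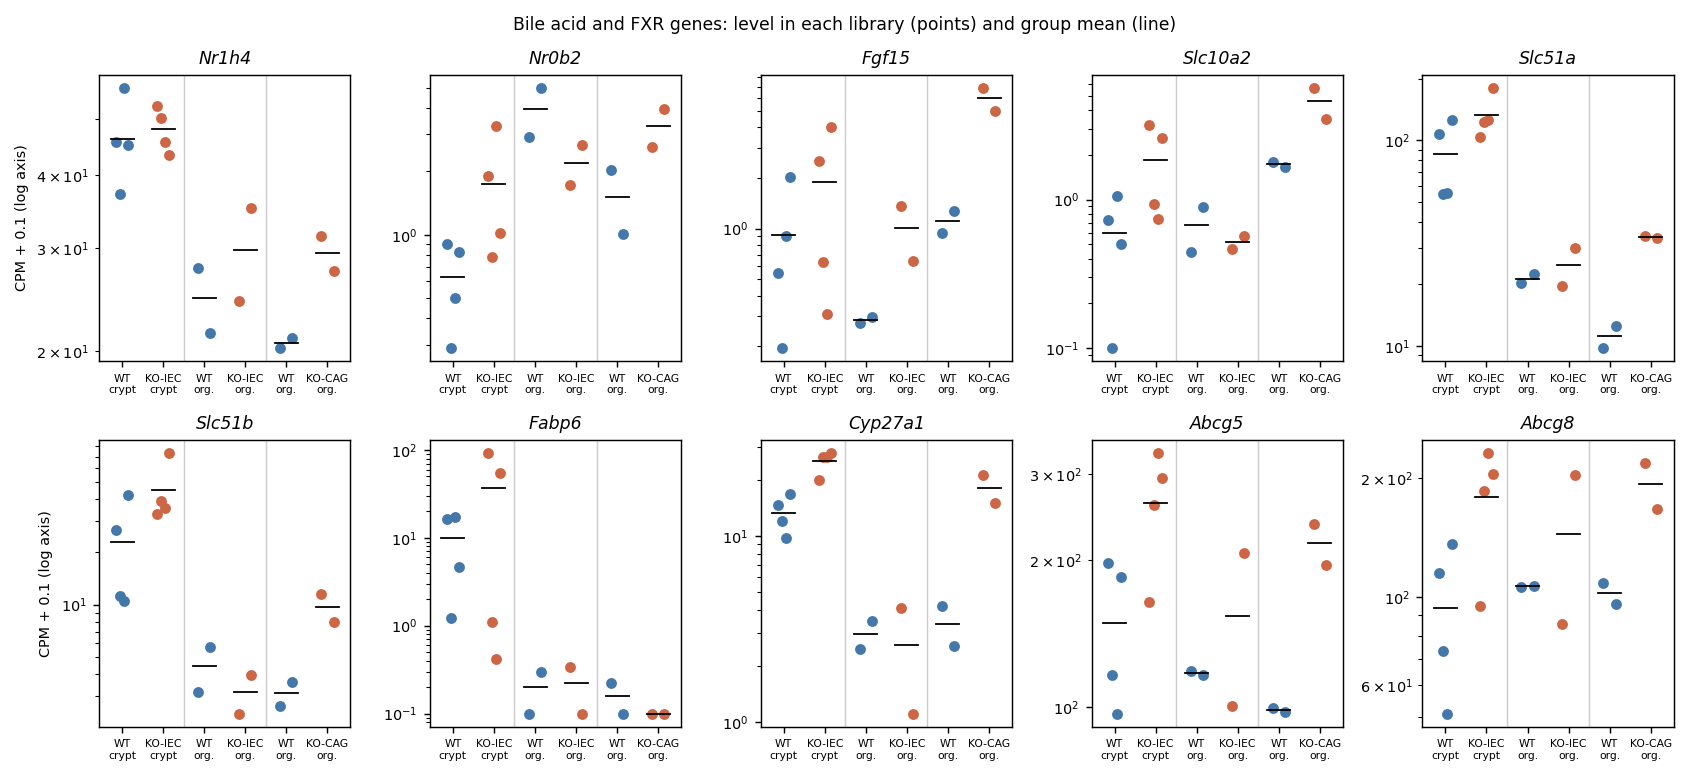
Level of each gene in CPM plus 0.1 (log axis, a separate range for each gene) in every library of the 6 groups, with the group mean as a line and grey lines between the 3 experiments. In the KO-CAG organoids both KO points lie above both WT points for every gene except Fabp6, which is at 0 to 1 count there.

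FXR itself had the smallest estimate in crypts and in KO-CAG organoids. In crypts Nr1h4 (chr10:89454234-89533585, minus strand) stood at 45.6, 37.0, 56.5 and 44.9 CPM in WT replicates 1 to 4 and at 52.5, 50.1, 45.6 and 43.2 CPM in KO-IEC, so the groups overlapped fully. The log2 fold change was 0.06 (SE 0.13, adjusted p = 0.789, edgeR), and it turned to -0.027 when libraries were scaled by total count alone. In KO-CAG organoids Nr1h4 was 20.1 and 21.0 CPM in WT and 31.4 and 27.3 CPM in KO. That rise of 0.51 (SE 0.13, adjusted p = 0.0166) was the smallest of the 9 genes tested and lost its call without WT replicate 1 or 2 (adjusted p up to 0.0907). Leaving out an organoid library leaves 1 library in its group, which is then assumed to vary like the other group. The KO-IEC organoids gave 27.6 and 21.4 CPM in WT against 24.2 and 35.1 CPM in KO, which overlap (log2 fold change 0.27, SE 0.28, adjusted p = 0.858).

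Fgf15, the hormone (chr7:144896531-144900953, plus strand), had the largest fold change of the 9 genes tested in KO-CAG organoids. KO-CAG organoids held 6.81 and 4.90 CPM (49 and 51 counts) against 0.843 and 1.17 CPM (7 and 9 counts) in their WT, a 5.71-fold difference (log2 2.51, SE 0.37, adjusted p = 0.000807). WT and KO did not overlap, although both WT values rest on few counts and Fgf15 entered the test only through its KO libraries. Counting strand is not stated, and 24.9% of its exonic bases overlap the antisense gene Gm26793, which had 10 and 3 counts in WT and 3 and 10 in KO. In KO-IEC organoids Fgf15 was at 3 counts in each WT library and at 21 and 8 counts in KO, below the filter for testing.

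Nr0b2 (chr4:133553376-133556536, plus strand) encodes SHP, a repressor that FXR induces. It was 1.93 and 0.907 CPM in WT and 2.50 and 3.85 CPM in KO-CAG organoids, with both KO libraries above both WT libraries. The difference of 1.17 on the log2 scale (SE 0.43) missed the threshold at adjusted p = 0.0611 in edgeR. Nr0b2 entered this test only through its KO libraries, so a difference in that direction was favoured. With 1 library left out the estimate ran from 0.74 to 1.81, in fits with a single library in 1 group. In KO-IEC organoids the order was the opposite, with 2.82 and 4.91 CPM in WT and 1.63 and 2.57 CPM in KO. That difference of -0.88 (SE 0.48) did not pass (adjusted p = 0.856). In crypts it reached at most 3.18 CPM and was not tested.

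The apical importer Slc10a2 (chr8:5083219-5105351, minus strand) was 1.69 and 1.55 CPM in WT and 5.56 and 3.37 CPM in KO-CAG organoids, a rise of 1.42 log2 units (SE 0.38, adjusted p = 0.0168). It lost its call without WT replicate 2 or KO replicate 1 (adjusted p up to 0.116). In KO-IEC organoids it stayed between 0.345 and 0.796 CPM in all 4 libraries, with overlap.

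The basolateral exporter subunits moved side by side in KO-CAG organoids. Slc51a was 9.64 and 12.4 CPM in WT and 34.1 and 33.6 CPM in KO (log2 fold change 1.62, SE 0.16, adjusted p = 6.92e-05). Slc51b (chr9:65412714-65422955, minus strand) was 2.53 and 3.50 CPM in WT and 11.4 and 7.88 CPM in KO (1.66, SE 0.30, adjusted p = 0.00222). Neither pair of groups overlapped, and the estimates of the subunits differ by less than their SE. In crypts Slc51a stood at 107, 55.0, 55.5 and 125 CPM in WT and at 104, 123, 126 and 181 CPM in KO-IEC, and Slc51b at 26.5, 11.1, 10.4 and 42.4 CPM in WT and at 32.9, 38.8, 35.4 and 73.3 CPM in KO-IEC. WT replicates 2 and 3 were the lowest and KO replicate 4 the highest library for each subunit. The differences of 0.64 and 1.00 log2 units (SE 0.29 and 0.46) did not pass (adjusted p = 0.165 for each), and that of Slc51b passed only without WT replicate 4 (adjusted p = 0.0446). In KO-IEC organoids the estimates were 0.22 for Slc51a and -0.50 for Slc51b (SE 0.28 and 0.49, adjusted p = 0.870 and 0.858), each with overlapping groups.

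The 2 subunits work as a dimer, so their ratio was taken in each library. Per kb, Slc51a stood between 0.871 and 2.37 times Slc51b over the 16 libraries, with WT and KO overlapping in crypts (1.31 to 2.37 against 1.09 to 1.58) and in KO-CAG organoids (1.58 and 1.69 against 1.32 and 1.89). In KO-IEC organoids both KO ratios (1.88 and 1.72) lay above both WT ratios (1.46 and 0.871), in the table with the longer Slc51a model. These ratios were not tested. The gene models behind these counts differ: in the KO-IEC organoid table Slc51a spans chr16:32474504-32487879 with 3198 exonic bases, and in the other tables chr16:32475522-32487879 with 1600 (minus strand). The longer model shares 17.7% of its exonic bases with Pcyt1a on the other strand, and Slc51b shares 12.8% with Rasl12.

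Fabp6, the ileal bile acid carrier (chr11:43596049-43601540, minus strand), varied widely between crypt libraries. It was 16.5, 1.13, 17.3 and 4.50 CPM in WT replicates 1 to 4 and 92.8, 0.993, 0.318 and 54.3 CPM in KO-IEC replicates 1 to 4. KO replicates 1 and 4 were thus the highest of the 8 libraries and KO replicates 2 and 3 the lowest, so the groups overlapped on both sides. The estimate of 1.90 (SE 1.30) did not pass (adjusted p = 0.333, exact permutation p = 0.943). The same KO replicates 1 and 4 were highest for Fgf15 (2.43 and 3.95 CPM) and Slc10a2 (3.06 and 2.48 CPM), while Nr1h4 was flat over these libraries.

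**Figure D2:**
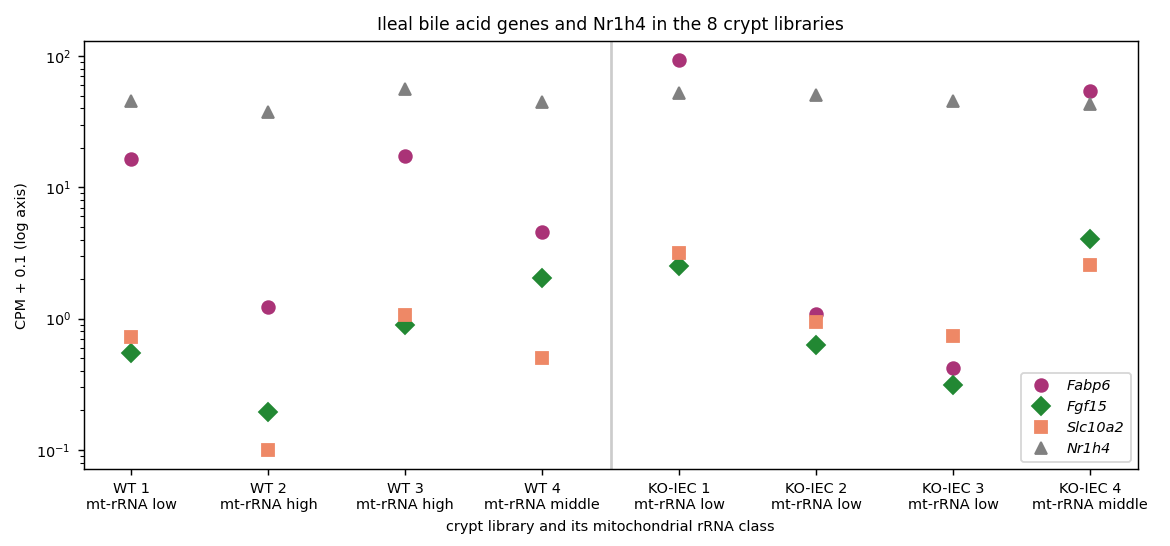
CPM plus 0.1 (log axis) of Fabp6, Fgf15, Slc10a2 and Nr1h4 in the 8 crypt libraries, each marked with the class of its mitochondrial rRNA level. KO-IEC replicates 1 and 4 are the highest for the first 3 genes, and Nr1h4 stays between 37.0 and 56.5 CPM.

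The genes most like Fabp6 over the 8 crypt libraries, by the smallest root mean square difference of centred log2 CPM among 13427 genes, were Pnliprp2 (1.62), the pseudogene Rpl15-ps3 (1.62), Ang4 (1.71), Tmigd1 (1.77) and Clps (1.81). A gene with no variation would have differed from Fabp6 by 2.58, so the likeness was moderate. None of the 5 passed the test of KO against WT (adjusted p from 0.344 to 0.945).

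Cyp27a1, the mitochondrial sterol 27-hydroxylase that starts the alternative route of bile acid synthesis (chr1:74713574-74737892, plus strand), was the gene with calls in 2 experiments. In crypts it was 14.6, 11.9, 9.60 and 16.6 CPM in WT and 19.9, 26.3, 26.4 and 27.8 CPM in KO-IEC. Every KO library lay above every WT library, with a fold change of 1.91 (log2 0.93, SE 0.18, adjusted p = 0.0401, edgeR, and exact permutation p = 0.0286, the smallest that 4 against 4 libraries can give). It was 1 call among the 7 genes tested there, where 4.3% of all 13427 tested genes were called higher. In KO-CAG organoids it was 4.10 and 2.46 CPM in WT and 21.0 and 14.8 CPM in KO, 5.35-fold higher (log2 2.42, SE 0.28, adjusted p = 0.000195). In KO-IEC organoids it was 2.36 and 3.38 CPM in WT and 3.98 and 1.01 CPM in KO, so that the KO libraries lay on either side of WT (-0.19, SE 0.71, adjusted p = 0.961).

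The crypt call of Cyp27a1 was narrow. It was lost in 6 of the 8 fits that left out 1 library, without WT replicate 1, 2 or 3 or KO replicate 2, 3 or 4 (log2 fold change from 0.81 to 1.08 and adjusted p from 0.0216 to 0.126 over the 8). The summed mitochondrial rRNA genes mt-Rnr1 and mt-Rnr2, which differed strongly between crypt libraries, were at 2840 and 2870 CPM in WT replicates 2 and 3 and at 18.9 to 1080 CPM in the other crypt libraries. Within the low class (1 WT, 3 KO) Cyp27a1 differed by 0.71 log2 units and within the middle class (1 WT, 1 KO) by 0.74, and the high class held WT only. With that class as a covariate the estimate was 0.74 (adjusted p = 0.202).

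Abcg5 and Abcg8 form the sterol exporter of the apical membrane, which returns cholesterol and plant sterols to the gut lumen. Abcg5 spans chr17:84658234-84683011 on the minus strand and Abcg8 chr17:84676302-84700333 on the plus strand. In KO-CAG organoids Abcg5 rose from 99.4 and 97.7 CPM to 237 and 195 CPM (log2 fold change 1.13, SE 0.10, adjusted p = 5.18e-05). Abcg8 rose from 109 and 96.0 CPM to 218 and 167 CPM (0.91, SE 0.12, adjusted p = 0.000504). For neither gene did the groups overlap.

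In crypts Abcg5 stood at 197, 116, 96.9 and 184 CPM in WT and at 164, 259, 331 and 294 CPM in KO-IEC. Abcg8 stood at 115, 73.0, 50.9 and 136 CPM in WT and at 94.8, 185, 231 and 204 CPM in KO-IEC. KO replicate 1 lay within the WT range for each gene, and the other 3 KO libraries lay above it. The differences of 0.82 and 0.93 (SE 0.27 and 0.34) did not pass in edgeR (adjusted p = 0.0821 and 0.101) and passed in DESeq2 (0.0202 and 0.0286) or without KO replicate 1 (0.0326 and 0.0361).

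In KO-IEC organoids the 2 KO libraries disagreed for this pair. Abcg5 was 118 and 116 CPM in WT and 100 and 207 CPM in KO, and Abcg8 was 106 CPM in both WT libraries and 85.5 and 203 CPM in KO. KO replicate 1 fell below WT and KO replicate 2 above it for each gene. The estimates of 0.39 and 0.44 (SE 0.36 and 0.42, adjusted p = 0.856 for each) became -0.22 and -0.31 without KO replicate 2, and passed without KO replicate 1 (adjusted p = 0.0113 and 0.00762), where the KO group is replicate 2 alone and the spread comes from the WT pair. The ratio of Abcg5 to Abcg8 per kb was between 1.41 and 1.62 in these 4 libraries and between 1.88 and 2.63 in crypts, with WT and KO overlapping in each. In the KO-CAG experiment it was 1.26 and 1.41 in WT and 1.51 and 1.61 in KO, without overlap. The genes share 82 exonic bases on opposite strands, 3.02% of Abcg5 and 2.19% of Abcg8.

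**Figure D3:**
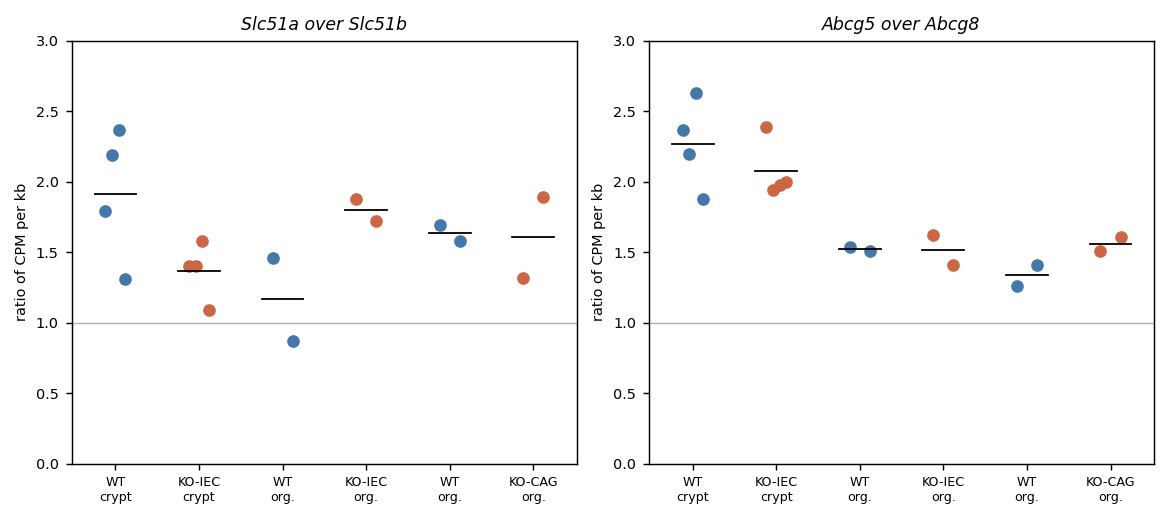
Ratio of CPM per kb of Slc51a to Slc51b (left) and of Abcg5 to Abcg8 (right) in each library, with group means as lines and a grey line at 1. The ratios run from 0.871 to 2.37 and from 1.26 to 2.63, and WT and KO overlap in each panel except for Slc51a to Slc51b in KO-IEC organoids and Abcg5 to Abcg8 in KO-CAG organoids, where KO is higher.

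The counts of calls were read beside those over all genes in each experiment. In KO-CAG organoids 8 of the 9 tested were called higher, where 18.1% of 13598 tested genes were, and 6 of the 9 rose at least 2-fold, where 6.36% did. The median log2 fold change of the 9 was 1.42 against 0.00121 over all tested genes. Nr0b2 and Fgf15 entered this test through their KO libraries, and without a filter on low counts 9 of the 10 were called. With all 16 libraries in 1 fit, which shares its estimate of spread with the more variable crypts and KO-IEC organoids, only Cyp27a1 remained called. In crypts 1 of 7 was called and all 7 estimates were above 0 (median 0.93 against -0.01 over all genes), with Nr0b2, Fgf15 and Slc10a2 too low to test. Calls in either direction took 6.96% of genes there, and 1.79% with a 2-fold threshold (1.44% higher), which Cyp27a1 did not reach. In KO-CAG organoids the 2-fold threshold took 8.6% in either direction and 2.24% lower.

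In KO-IEC organoids 0 of 7 was called in edgeR or DESeq2 and 0 of 7 had an unadjusted p under 0.05, with a median of 0.22. There 0.00717% of 13938 genes were called, which was Cul4b itself, and 650 genes had an unadjusted p under 0.05. In simulated counts made like this experiment, 98 tested genes were changed 2-fold and 98 were changed 4-fold, of which 1.02% and 52% were recovered. Changes near 2-fold were thus mostly not detected in such counts. Recovery at an adjusted p depends on the share of genes that change, which is not known for these data.

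**Figure D4:**
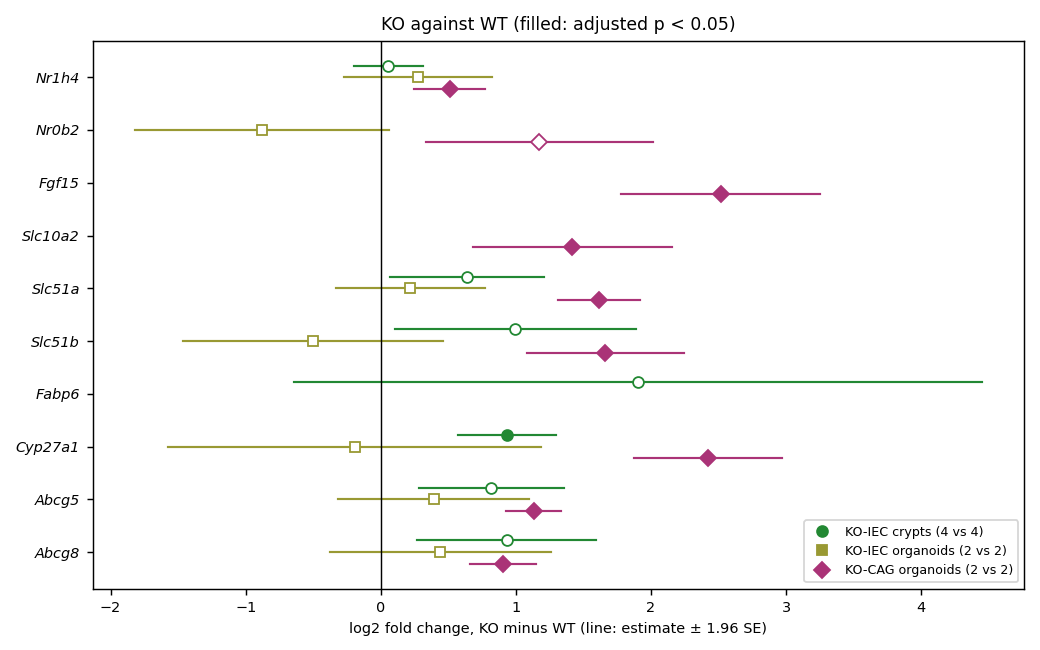
Log2 fold change of KO against WT for each gene in KO-IEC crypts (circles, 4 against 4 libraries), KO-IEC organoids (squares, 2 against 2) and KO-CAG organoids (diamonds, 2 against 2), with 95% intervals from the SE as lines and filled symbols for adjusted p under 0.05. Genes below the count filter have no symbol. The diamonds are filled for 8 of 9 genes, the circles for Cyp27a1 only and no square is filled.

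The difference between experiments was tested directly with interaction terms over all 16 libraries. No gene of the 10 passed in edgeR in any of the 3 pairs of experiments, where 0.372%, 0.385% and 0.00642% of 15585 genes did for KO-CAG organoids minus crypts, KO-CAG minus KO-IEC organoids, and KO-IEC organoids minus crypts. The nearest was Cyp27a1, whose effect in KO-CAG organoids exceeded that in KO-IEC organoids by 2.61 log2 units (SE 0.66, unadjusted p = 0.00153, adjusted p = 0.146), and this passed in DESeq2 (adjusted p = 0.00938). Slc51a, Slc51b and Nr0b2 also had an unadjusted p under 0.05 in edgeR in that pair (0.0284, 0.0468 and 0.0487). For Slc51a that pair sets counts from a shorter gene model against counts from a longer one. Cyp27a1 had such a p in KO-CAG organoids minus crypts (0.0166) and Nr0b2 in KO-IEC organoids minus crypts (0.0108). DESeq2 called neither of these last differences. A difference in the effect of the deletion between experiments was thus not shown for these genes in edgeR, which does not show that the effects were alike. For Fabp6, close to absent in organoids, the SE of these terms ran from 5.54 to 11.19 log2 units, so its tests could not decide. The SE for Fgf15 reached 2.12.

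Markers of absorptive cells moved with some of these genes. The sum of 8 enterocyte markers (Alpi, Apoa4, Apoa1, Krt20, Sis, Fabp2, Anpep and Vil1) was 4480 and 4830 CPM in WT and 13300 and 10400 CPM in KO-CAG organoids, with 7 of 8 markers called higher. In crypts it ran from 2900 to 10600 CPM in WT and from 9890 to 19100 CPM in KO-IEC, with 1 of 8 called higher. WT replicates 2 and 3 had the lowest sums (3960 and 2900 CPM), and they also had the lowest Slc51a, Slc51b, Cyp27a1, Abcg5 and Abcg8 and the highest mitochondrial rRNA. Nr1h4 and Fabp6 did not follow the sums in crypts. Nr1h4 was flat, and Fabp6 was lowest in KO replicates 2 and 3 (0.993 and 0.318 CPM), whose marker sums were 15100 and 18700 CPM. KO-IEC organoid replicate 2, the library with high Abcg5 and Abcg8, had the highest sum of its experiment, 11000 CPM against 4200 to 8570 CPM in the other 3. In bulk RNA more cells of a type and more RNA per cell cannot be told apart.

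With the enterocyte marker level as a covariate in crypts, Slc51a, Slc51b, Abcg5 and Abcg8 had estimates of -0.21, -0.21, -0.087 and -0.24 log2 units, and Cyp27a1 had 0.38 (SE 0.16, adjusted p = 0.595). The covariate overlaps with genotype, as the sums show, and no such fit was made for the organoids. Of the distal small intestinal markers (Cubn, Amn, Clec2h, Pyy, Nts and Gcg) 5 of the 5 tested were called higher in KO-CAG organoids. There 18.1% of all tested genes were called higher. Cubn entered that test only through its KO libraries, so a difference in that direction was favoured. The summed level of the list was 171 to 189 CPM in WT and 326 to 435 CPM in KO. Of the 8 proximal markers there, 4 were called higher (Slc40a1, Lct, Fabp1 and Rbp2) and 3 had estimates below 0. Among these 3, Onecut2 (-0.26, adjusted p = 0.0928, edgeR) lay below WT in both KO libraries. In KO-IEC crypts 1 of 6 distal markers was called, Cubn, which was higher (2.37), and 0 of 8 proximal markers were. Of the 8 proximal estimates there 7 were above 0 and 1 was below, with a median of 1.48 against 0.59 for the distal list. Lct alone (2.255, adjusted p = 0.0547, edgeR) was higher in every KO library than in every WT library. The distal list was split there, with 4 estimates above 0 and 2 below, those of Gcg and Pyy. Gcg (-0.65, adjusted p = 0.0809, edgeR) was lower in every KO library than in every WT library, and Pyy overlapped (-0.70).

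Some stem cell markers were called lower. Of Lgr5, Ascl2, Olfm4 and Smoc2, 2 were called lower in KO-IEC crypts (summed level 1390 to 2220 CPM in WT and 863 to 1400 CPM in KO) and 2 in KO-CAG organoids (2590 to 3100 CPM and 2120 to 2490 CPM). In KO-CAG organoids the lower ones were Lgr5 (-1.25) and Smoc2 (-0.38), Olfm4 overlapped (-0.11, adjusted p = 0.569), and Ascl2 lay above WT in both KO libraries without a call (0.32, adjusted p = 0.161). In KO-IEC organoids all 4 were lower in both KO libraries than in WT (2300 and 3450 CPM against 1420 and 333 CPM) without a call. Immune markers in crypts summed to 14.0 to 53.1 CPM in WT and 21.4 to 98.8 CPM in KO-IEC (0 of 7 called), and stromal and muscle markers to 4.18 to 7.44 CPM and 1.06 to 4.60 CPM (0 of 2 tested called). In organoids each of these 2 sums was at most 2.22 CPM, and in the KO-IEC organoid experiment 3 of the 7 markers of each list had no count in any library. Liver markers were at most 1.85 CPM in crypts and 10.4 CPM in organoids, and of their 2 tested markers both were lower in KO-CAG organoids. The part of these shifts in cell markers in the differences of the bile acid genes was not tested beyond the crypt covariate.

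**Figure D5:**
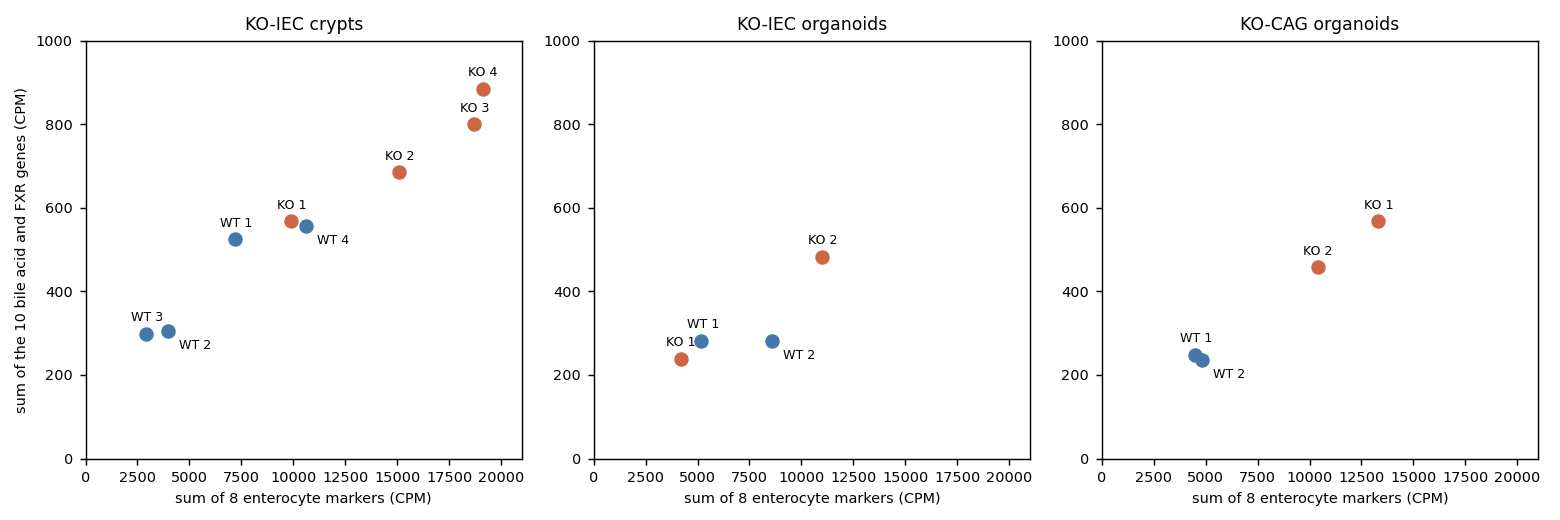
Sum of the 10 bile acid and FXR genes (CPM) against the sum of 8 enterocyte markers (CPM) in each library, by experiment, with WT in blue and KO in orange. In crypts WT replicates 2 and 3 sit lowest on both axes and KO replicate 4 highest, and in KO-CAG organoids both KO libraries lie above both WT libraries on each axis.

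The wider pathway was followed in 46 further genes: receptors and regulators, the FGF15 signal, other bile acid transporters, bile acid synthesis and conjugation, and intestinal sterol handling. Cyp7a1 and Cyp8b1, liver enzymes of the classical route, had at most 2 counts summed over any group. In KO-CAG organoids 14 of 32 tested genes were higher and 3 lower, against 18.1% and 13.4% of all tested genes, with a median of 0.33 log2 units. Of the sterol genes 5 of 8 were higher, Abcg1 among them. Abcg1 and Abca1 export cellular cholesterol. Abcg1 rose by 1.97 (SE 0.48, adjusted p = 0.0117, edgeR), from 8 counts in all in WT to 35 in KO. It entered this test only through its KO libraries, so a difference in that direction was favoured. Abca1 rose by 1.47 (SE 0.26, adjusted p = 0.00189). Mttp, which loads lipid onto lipoproteins, rose by 1.17 (SE 0.11, adjusted p = 6.53e-05) and Soat2, which esterifies cholesterol, by 1.12 (SE 0.13, adjusted p = 0.000167). Of the transporters 3 of 4 tested were higher, of the synthesis and conjugation genes 2 of 5 higher and 1 lower, of the FGF15 signal 1 of 2 higher, and of the receptors and regulators 3 of 13 higher and 2 lower.

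Genes that were lower in KO-CAG organoids included Cyp39a1, a hydroxylase of 24-hydroxycholesterol, at -1.16 (SE 0.24, adjusted p = 0.00473), and the vitamin D receptor Vdr at -0.58 (SE 0.09, adjusted p = 0.000833). The FXR partners Rxra and Rxrb were not called, and neither were the sterol receptors Nr1h2 and Nr1h3.

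In KO-IEC crypts 4 of 31 tested pathway genes were higher and 1 lower, against 4.3% and 2.66% of all tested genes. Mttp was higher by 1.27 (SE 0.32, adjusted p = 0.0499), Malrd1, which promotes FGF15 output, by 1.05 (SE 0.20, adjusted p = 0.0397), the nuclear factor Hnf4g by 0.91 (SE 0.20, adjusted p = 0.0438) and the xenobiotic receptor Nr1i2 by 0.38 (SE 0.10, adjusted p = 0.0493). Cyp39a1 was lower, at -0.73 (SE 0.13, adjusted p = 0.0379), with 18.4 to 24.4 CPM in WT and 11.3 to 13.6 CPM in KO. Mttp overlapped between the groups and the other 4 did not. These 5 calls were all lost without WT replicate 1, 2 or 3 or KO replicate 2 or 3, and 1 remained without KO replicate 4. In KO-IEC organoids 0 of 34 were called in edgeR or DESeq2 (4 had an unadjusted p under 0.05), and Cyp39a1 lay at 11.6 to 15.7 CPM in WT and 8.10 to 9.70 CPM in KO (-0.62, SE 0.29, adjusted p = 0.856).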

How the data were processed

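The authors deposited raw read counts per gene in 3 tables, 1 for each experiment. Per the labels and the submitters' processing notes, libraries were made by standard Illumina methods, and reads were aligned with HISAT2 2.0.5 and counted with featureCounts 1.5.0-p3. Strand use is not given in the sources used here. Gene positions in the tables are those of GRCm38. The columns of gene annotation were used for names and lengths.

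Counts were analysed with edgeR 4.0.16 in R 4.3.3 (filterByExpr with a minimum count of 10, TMM, quasi-likelihood test), within each experiment, with p-values adjusted by Benjamini-Hochberg across the whole table and a threshold of 0.05. DESeq2 1.42.0 was an alternative. Interaction terms were fitted over all 16 libraries. CPM are TMM-scaled. Log2 CPM for exact 2-sided permutation tests used a prior count of 2. In simulated counts, 59% of 100 tested genes changed 2-fold (crypts) and 76.5% of 98 (KO-CAG organoids) were recovered. Few genes were changed in these simulations, and recovery depends on that share. Totals ranged from 7348191 to 16881395 counts. Promoter sequences are from RefSeq (GRCm38.p6).

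The 10 genes, the pathway and marker lists and the tests were chosen with earlier results of these data known. Pathway genes were named if called, up to the 4 largest changes of each direction in an experiment. The values of 1 gene that this rule takes are not reported here. Same-numbered crypt libraries did not deviate together (correlations from -0.395 to 0.434), so the numbers were not treated as pairs.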

Additional observations from a re-analysis of the deposited data

Results flagged for a closer look

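Over 20 sets of 4 crypt libraries (10 genes in WT and KO-IEC), 1 held a library far from the others. Slc51b in KO-IEC replicate 4 was 73.3 CPM, and the nearest library was 38.8 CPM, a gap of 0.854 of the whole range where 0.829 is the critical value of Dixon's test. Chance alone flags about 1 in 20 such sets. The same library had the highest Slc51a, at 181 CPM, and the highest enterocyte marker sum, at 19100 CPM.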

How the results depend on the processing

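The crypt results were the least stable. The count of called bile acid and FXR genes, 1 in the reported fit, was 3 with no low-count filter and 3 in DESeq2, and 0 with the mitochondrial rRNA class or the enterocyte marker level as covariate, with all 16 libraries in 1 fit, or with a 2-fold threshold. It ranged from 0 to 3 when each library was left out. Of the other pathway genes 5 were called, against 3 with library size only, 8 with no filter, 11 in DESeq2, 0 with either covariate, 10 with all 16 libraries and 2 with a 2-fold threshold, and from 0 to 11 with a library left out. In KO-IEC organoids both counts were 0 and reached 2 and 10 without KO replicate 1. There Cul4b ranged from -5.60 to -5.40 and lost its call without either WT library (adjusted p = 0.451 and 0.230). In organoids such fits leave 1 library in a group, which is assumed to vary like the other group. In KO-CAG organoids the count of 8 was between 6 and 9 under every alternative except the fit of all 16 libraries, where it was 1. The pathway count of 17 was 1 in that fit and 6 with a 2-fold threshold. DESeq2 did not call Nr1h4 or Slc10a2. The interaction count was 1 in DESeq2 for KO-CAG minus KO-IEC organoids. Promoters with a match numbered 0 with 0 or 1 mismatch allowed and 3 with 3. The causes of these shifts were not tested.

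Signs turned for Nr1h4 in crypts with library size only (-0.027) and without WT replicate 2 (-0.035, with 0.17 as the highest value when a library was left out), and with the enterocyte covariate for Slc51a (-0.21), Slc51b (-0.21), Abcg5 (-0.087) and Abcg8 (-0.24). In KO-IEC organoids they turned without KO replicate 2 for Nr1h4 (-0.016), Slc51a (-0.12), Cyp27a1 (0.47), Abcg5 (-0.22) and Abcg8 (-0.31), whose values at the other end, without KO replicate 1, were 0.51, 0.49, -1.50, 0.82 and 0.93, and without WT replicate 2 for Cyp27a1 (0.08). Of the values that turned sign, none was called. Over 272 alternative values for the 10 genes, 224 kept direction and side of the threshold.

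With the replicate number as a block, 0 bile acid genes and 0 other pathway genes were called in crypts, where Cyp27a1 had an adjusted p of 0.0891, and 9 and 18 in KO-CAG organoids. In KO-IEC organoids both counts stayed at 0. Crypt libraries correlated best with their own number in 2 of 4 cases. The organoid correlations were 0.342 (KO-IEC) and 0.0669 (KO-CAG), and each library matched its own number best. With 2 pairs each and no label that ties a number to a shared batch, pairing could not be decided. In the KO-IEC experiment replicate 2 of both groups had the higher mitochondrial rRNA (2180 and 2470 CPM against 1420 and 1240 CPM) and the higher enterocyte marker sum.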
